A study of Homo sapiens with 15 samples.

Results

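RNA recovered with an antibody against Brg1 was compared directly with RNA recovered with an antibody against Sfpq in 22Rv1, an established human prostate cancer cell line. The comparison rests on 4 of the 15 libraries of the series: Brg1 replicates A and B and Sfpq replicates A and B, taken by their labels. Input RNA of the same line (2 libraries, RNA before precipitation) and precipitates with non-specific IgG (3 libraries) are given beside them. All these cells were unmodified 22Rv1 grown in RPMI with fetal calf serum and fixed in 0.3% formaldehyde for 30 min, and no group carried a drug or a genetic change per the labels. The Brg1 antibody was Abcam ab110641, the Sfpq antibody Genetex GTX114209 and the IgG Sigma I5006. LNCaP, another prostate cancer line, supplied 2 Brg1 and 2 input libraries that took no part in the Brg1 against Sfpq calls. The LNCaP cells were also fixed in 0.3% formaldehyde for 30 min. LNCaP IgG replicates A and B, very shallow at 22184 and 46297 reads, are given only for the share of reads by kind of row. The labels do not say whether letters A and B are separate cultures, so p-values measure the spread between these libraries, which may be technical.

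RNA immunoprecipitation collects a protein from lysed, fixed cells by its antibody and sequences the RNA that comes along, whether bound directly or through other proteins. Brg1, encoded by SMARCA4, is an ATPase of SWI/SNF, the complex that uses ATP to move nucleosomes on chromatin. Sfpq is an RNA- and DNA-binding protein of the DBHS family, known for roles in splicing and as a component of paraspeckles, the nuclear bodies built on the long RNA NEAT1. Chromatin carries nascent transcripts that still hold introns, whereas mature mRNA is mostly cytoplasmic.

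The table of 22Rv1 has 22542 rows, of which 22540 passed a mean of 1 RPM (reads per 1000000 recovered reads of a library). Rows come in 2 kinds, plain gene names and names with the suffix .primary. The sources used here do not state what the suffix means, so both kinds were kept apart and are described by name only. Brg1 libraries held 47531308 and 45259907 reads and Sfpq libraries 7139669 and 7352226, a mean ratio of 6.40, whose part in the results was not tested. Input held 47871438 and 16037423 reads, and IgG 4424105, 1751329 and 490879. A floor of 3 reads stood at 0.0631 and 0.0663 RPM in Brg1 and at 0.420 and 0.408 RPM in Sfpq, and 39 rows had both Sfpq libraries at or under it against 3 rows for Brg1. Of 10 prostate epithelial markers, 6 have a row, TMPRSS2, HOXB13, KRT8 and KRT18 among them. Of 12 markers of other cell types, 2 have a row. The fibroblast collagen row COL1A1 had 15.7 and 15.2 RPM in Brg1, 23.8 and 24.8 in Sfpq and 17.6 and 19.95 in input. All values are shares of a library, so a higher share of some RNAs lowers the share of the rest, and in bulk libraries more cells with an RNA and more RNA per cell cannot be told apart. The amount of RNA per precipitate was not analysed here.

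The 2 antibodies recovered different kinds of rows. Among .primary rows, 8488 of 11685 (72.6%) were higher in Brg1 and 928 (7.94%) were higher in Sfpq. Among rows without the suffix the balance lay the other way, with 537 of 10855 (4.95%) higher in Brg1 and 7670 (70.7%) higher in Sfpq. The median log2 fold change, Brg1 minus Sfpq, was 1.14 over .primary rows and -0.96 over rows without the suffix. Over all 22540 rows it was 0.05, with 9025 rows (40.0%) higher in Brg1 and 8598 (38.1%) higher in Sfpq. The test was limma on log2(RPM + 0.5) over the Brg1, Sfpq and input libraries, with Benjamini-Hochberg adjusted p under 0.05 as the call. Below, a signed number alone in parentheses after the levels of a row is this log2 fold change. Both Brg1 libraries lay above both Sfpq libraries in 10085 of the tested rows (44.7%), and both Sfpq libraries lay above both Brg1 libraries in 9546 (42.4%). Replicates resembled each other more than the antibodies did: across the 22542 rows, which share their libraries' depth, Spearman's rho was 0.966 between the Brg1 libraries, 0.975 between the Sfpq libraries and 0.570 to 0.645 between antibodies. With the 3 IgG libraries added to the fit, whose spread the model then shares, 208 rows were higher in Brg1 and 217 in Sfpq. At the deposited scaling the counts were 6725 and 4988.

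**Figure D1:**
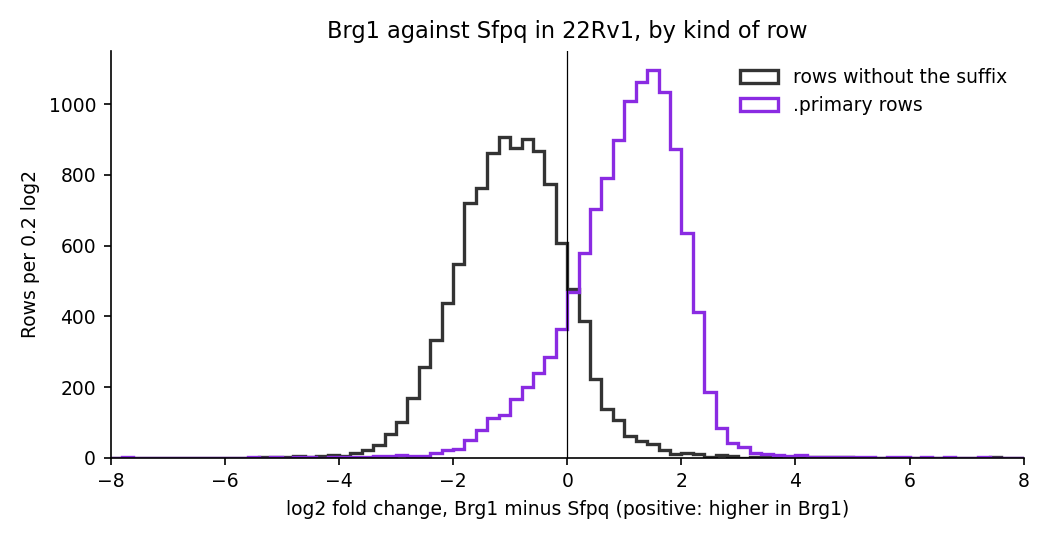
Histogram of log2 fold changes, Brg1 minus Sfpq, on the x axis against the number of rows per bin of 0.2 on the y axis, for .primary rows and for rows without the suffix. The .primary rows centre at 1.14, to the side of Brg1, and the rows without the suffix at -0.96, to the side of Sfpq.

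The same split shows in the share of reads. Brg1 libraries had 65.7% and 62.7% of their reads on .primary rows, and Sfpq libraries had 27.5% and 33.4%. Both Brg1 libraries were higher than both Sfpq libraries, by 33.8 percentage points between the means (64.2% ± 2.07 and 30.4% ± 4.20, SD, n = 2 each). The exact two-sided permutation test gave p = 0.333, the smallest that 2 libraries against 2 allow. Input stood close to Sfpq, at 38.2% and 34.8%. IgG libraries had 62.5%, 59.5% and 39.1%, so that IgG replicates A and B, though not C, were near the Brg1 share. How much of the Brg1 share is background of this kind was not tested.

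**Figure D2:**
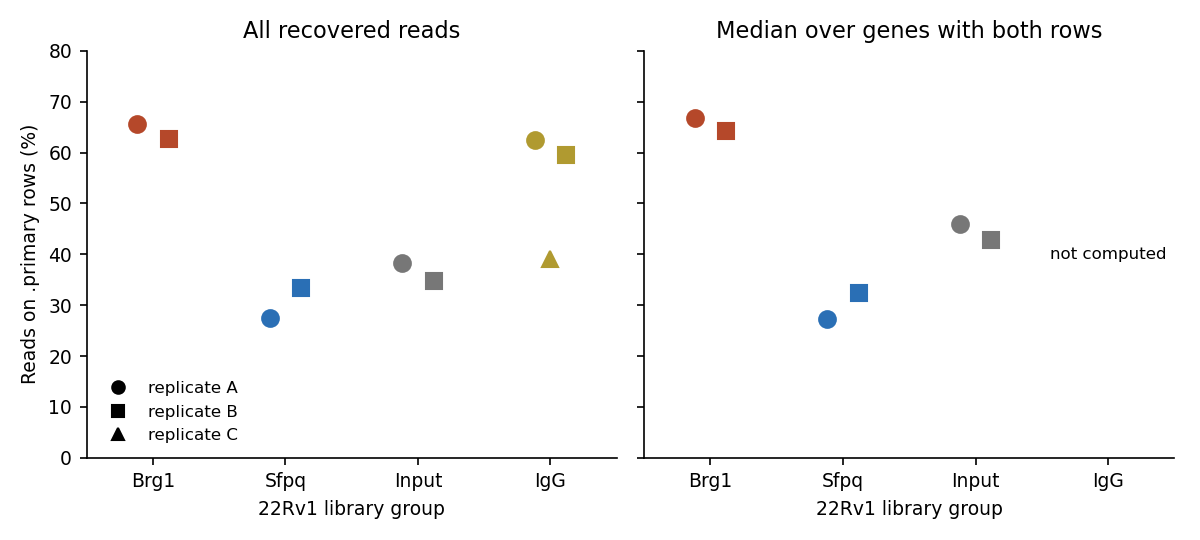
Percent of reads on .primary rows for each 22Rv1 library, by group on the x axis, over all reads (left) and as the median over the 8246 genes with both kinds of row (right). Brg1 libraries lie at 65.7% and 62.7% in the left panel, above Sfpq at 27.5% and 33.4% and input at 38.2% and 34.8%, and IgG spreads from 39.1% to 62.5%.

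Within single genes the shift was as wide. In 8246 genes both kinds of row had at least 10 reads together in each of the 4 libraries, and the median share on the .primary row was 66.8% and 64.2% in Brg1, 27.4% and 32.5% in Sfpq, and 45.9% and 42.8% in input. Here input lay between the antibodies. In 7132 of these genes (86.5%) both Brg1 libraries had the larger .primary share, and in 325 (3.94%) both Sfpq libraries had it. The quartiles of the genes ran from 45.3% to 83.2% in Brg1 replicate A and from 14.2% to 47.6% in Sfpq replicate A.

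The opposite moves partly cancelled when the rows of a gene were added up. In 4647 of the 8246 genes (56.4%) the .primary row was higher in Brg1 while the plain row was higher in Sfpq, and the reverse held in 17. Of those 4647 genes, the summed level was higher in Brg1 in 1519, higher in Sfpq in 1780 and not called in 1348. Both rows were higher in Brg1 in 224 genes and both higher in Sfpq in 487. Over all 14294 genes, summed levels were higher in Brg1 in 5380 (37.6%) and higher in Sfpq in 5060 (35.4%), and the median log2 fold change was 0.03. SFPQ and the long gene LRP1B, described below, are examples of opposite rows.

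Genes recovered with Brg1 spanned more of the genome. A span from the RefSeq table (GRCh38.p14) could be matched to 89.9% of genes. The summed level was higher in Brg1 in 16.8% of genes spanning under 3 kb, in 11.1% of those spanning 3 to 10 kb, in 36.0% of those spanning 30 to 100 kb and in 83.7% of those over 300 kb. In the same 4 classes the summed level was higher in Sfpq in 37.1%, 49.9%, 37.4% and 10.1% of genes. The median span was 82.1 kb among gene totals higher in Brg1 and 26.5 kb among those higher in Sfpq. For .primary rows, the share higher in Brg1 was 38.8% under 3 kb, 33.3% at 3 to 10 kb and 97.8% over 300 kb. The rise thus began above the class of 3 to 10 kb, and the class under 3 kb, 67 .primary rows, stood above it. Rows without the suffix went the other way, from 38.9% higher in Sfpq under 3 kb to 85.3% at 100 to 300 kb and 78.2% over 300 kb. Spearman's rho between span and log2 fold change was 0.37 for gene totals, 0.40 for .primary rows and -0.30 for rows without the suffix, as descriptions across genes, which are not independent replicates.

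**Figure D3:**
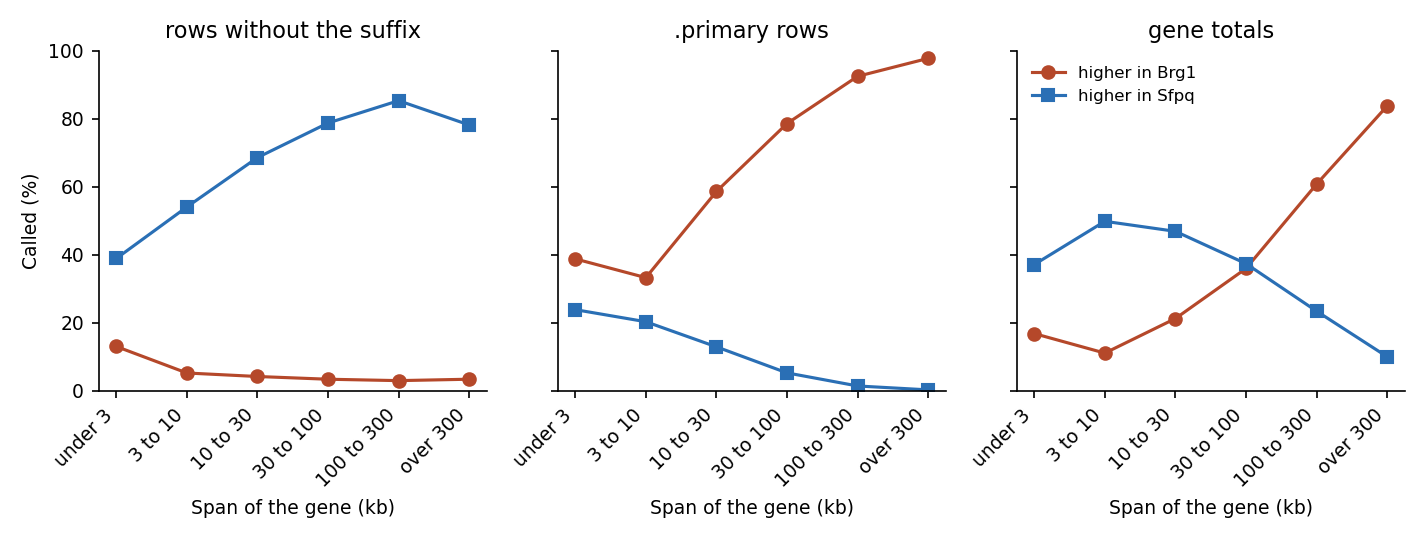
Percent of rows or genes called higher in Brg1 (circles) or higher in Sfpq (squares) on the y axis, against the span of the gene in kb on the x axis, for rows without the suffix, .primary rows and gene totals. Gene totals higher in Brg1 go from 16.8% under 3 kb through 11.1% at 3 to 10 kb to 83.7% over 300 kb.

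Very long genes were divided by kind of row. Of 31 .primary rows from a list of genes with very large introns, 30 (96.8%, beside 72.6% of all .primary rows) were higher in Brg1 and 0 in Sfpq, with a median log2 fold change of 1.92. Of their 27 rows without the suffix, 3 were higher in Brg1 and 21 (77.8%, beside 70.7% of all plain rows) in Sfpq, with a median of -1.23. LRP1B.primary, from a gene for a giant lipoprotein receptor, had 787 and 702 RPM in Brg1, 143 and 158 in Sfpq, 213 and 185 in input and 796, 422 and 308 in IgG. Brg1 was 4.94-fold above Sfpq with no overlap, a log2 fold change of 2.30 (SE 0.14, adjusted p = 3.19e-09), while IgG replicate A reached the Brg1 level. The plain LRP1B row ran against it, at 19.2 and 19.4 RPM in Brg1 and 46.6 and 43.8 in Sfpq, a log2 fold change of -1.21. ZBTB20.primary, from a gene for a zinc finger repressor, had 122 and 121 RPM in Brg1 and 22.8 and 18.9 in Sfpq (2.52 on the log2 scale), with 24.3 and 27.9 in input. The plain row of TBC1D5, a regulator of membrane traffic, had 17.8 and 14.5 RPM in Brg1 and 98.5 and 86.2 in Sfpq (-2.48). PTPRD, a receptor phosphatase, had 3.35 and 3.93 RPM in Brg1 against 20.6 and 17.1 in Sfpq on its plain row (-2.22). The summed levels of LRP1B (1.96), TBC1D5 (1.06) and PTPRD (0.76) were higher in Brg1, against their plain rows.

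The RNA of the bait itself stood apart in Brg1. SMARCA4, which has no .primary row, had 12446 and 16356 RPM in the Brg1 libraries and 486 and 492 in the Sfpq libraries. Input held 310.0 and 296 and IgG 262, 265 and 308 RPM. Brg1 was 29.5-fold above Sfpq, a log2 fold change of 4.87 (SE 0.16, adjusted p = 1.2e-10), and no library of another group came near either Brg1 library. In LNCaP the SMARCA4 row was also higher in Brg1, at 12763 and 10406 RPM against 211 and 218 in input. No such excess was seen for SFPQ with its own antibody. The plain SFPQ row had 479.8 and 524 RPM in Brg1 and 826 and 735 in Sfpq (1.55-fold higher in Sfpq, log2 fold change -0.63, SE 0.14, adjusted p = 0.000676), less than the median shift of plain rows, with input at 452 and 449. SFPQ.primary was higher in Brg1, with 153 and 133 RPM against 34.0 and 45.6 (1.84), and input lay between them at 93.2 and 92.9. The summed level of SFPQ was higher in Sfpq (-0.35).

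Other SWI/SNF subunits were divided by kind of row. Of 27 plain rows, SMARCA4 alone was higher in Brg1, 23 (85.2%, beside 70.7% of all plain rows) were higher in Sfpq and the median log2 fold change was -1.06, beside -0.96 over all plain rows. Of 20 .primary rows, 11 (55.0%) were higher in Brg1 and 3 (15%) in Sfpq, beside 72.6% and 7.94% of all .primary rows. Summed over the 26 subunit genes other than SMARCA4, levels were 3015 and 3138 RPM in Brg1, 4479.8 and 4549.5 in Sfpq and 3195 and 3127 in input. ARID2, a subunit of the PBAF form, had 23.5 and 30.0 RPM in Brg1 and 186 and 164 in Sfpq on its plain row, 6.54-fold higher in Sfpq (-2.70). On ARID2.primary the order turned, with 170.5 and 132 in Brg1 and 59.0 and 61.1 in Sfpq (1.32). BICRAL, a subunit of the non-canonical complex, had 2.97 and 5.90 RPM in Brg1 against 42.2 and 34.8 in Sfpq (-3.04). ARID1A, the large subunit of the BAF form, had 141 and 154 RPM in Brg1 against 649 and 704 in Sfpq (-2.19). BRD7.primary, from a bromodomain subunit of PBAF, had 20.2 and 15.9 RPM in Brg1 and 3.22 and 2.72 in Sfpq (2.41). The summed levels of BRD7 (-1.15) and ARID2 (-0.40) were higher in Sfpq, against their .primary rows. Among the DBHS genes, the partners of Sfpq, the plain rows of NONO (266 and 343 against 682 and 577 RPM, -1.05) and PSPC1 (40.2 and 47.9 against 85.2 and 66.1, -0.77) were higher in Sfpq, like SFPQ. PSPC1.primary was higher in Brg1 (0.67), and the summed level of PSPC1 was not called (-0.17).

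Long non-coding RNAs were divided between the antibodies. The starts of 5 RNAs are shown because their RNAs lie on opposite sides. Each is 20 bases upstream in lower case and the first 50 bases of the RNA in capitals, from RefSeq (GRCh38.p14), written 5′ to 3′ in the direction of transcription. MALAT1, FTX and MIR663AHG were higher in Brg1, and NORAD and SNHG16 in Sfpq.
MALAT1, chr11:65497718-65497787, plus strand: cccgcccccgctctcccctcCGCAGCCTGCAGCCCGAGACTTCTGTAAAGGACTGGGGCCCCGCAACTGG
FTX, chrX:74293525-74293594, minus strand: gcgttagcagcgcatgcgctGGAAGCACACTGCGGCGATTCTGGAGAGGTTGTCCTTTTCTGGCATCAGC
MIR663AHG, chr20:26209184-26209253, minus strand: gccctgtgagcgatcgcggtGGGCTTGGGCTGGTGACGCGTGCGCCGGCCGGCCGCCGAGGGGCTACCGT
NORAD, chr20:36050911-36050980, minus strand: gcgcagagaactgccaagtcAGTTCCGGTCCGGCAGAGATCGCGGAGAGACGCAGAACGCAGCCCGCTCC
SNHG16, chr17:76557744-76557813, plus strand: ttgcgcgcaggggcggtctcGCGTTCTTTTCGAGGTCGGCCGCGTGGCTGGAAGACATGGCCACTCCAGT

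MALAT1, an abundant RNA of nuclear speckles, had 6593 and 5801 RPM in Brg1, 1275 and 1246 in Sfpq, 2614 and 2738 in input and 4616, 4419.5 and 2449 in IgG. Brg1 was 4.92-fold above Sfpq (log2 fold change 2.29, SE 0.17, adjusted p = 1.81e-08), with Sfpq below input. KCNQ1OT1, an antisense RNA that silences an imprinted cluster, had 414 and 392 RPM in Brg1, 80.4 and 103 in Sfpq and 65.1 and 65.8 in input (log2 fold change 2.14, SE 0.14, adjusted p = 7.16e-09). IgG replicates A and B also lay above input there, at 251 and 254. The plain row of FTX, an RNA of the X-inactivation centre, had 70.7 and 55.5 RPM in Brg1 and 17.4 and 16.5 in Sfpq (log2 fold change 1.86, SE 0.17, adjusted p = 9.85e-08), with input between at 45.7 and 39.5. SCHLAP1, the prostate cancer RNA that the series concerns, has only a .primary row in 22Rv1. SCHLAP1.primary had 62.4 and 67.5 RPM in Brg1 and 15.1 and 23.5 in Sfpq (log2 fold change 1.76, SE 0.20, adjusted p = 1.31e-06), with 16.6 and 13.8 in input and 40.5, 20.6 and 65.2 in IgG. Both Brg1 libraries were above both Sfpq libraries, and IgG replicate C lay between the Brg1 libraries. Its fold change stood at percentile 88.3 of all rows, plain rows included. Among .primary rows alone the median was 1.14, and 6498 of 11685 were called at least 2-fold higher in Brg1.

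NEAT1, the scaffold of paraspeckles, where Sfpq resides, was not called between the antibodies. It had 1095 and 1088 RPM in Brg1 and 774 and 981 in Sfpq, a log2 fold change of 0.32 (SE 0.16, adjusted p = 0.0707), although the replicates did not overlap. The call depended on the processing: NEAT1 was higher in Brg1 at adjusted p = 0.0216 with TMM, 0.0209 by edgeR, 0.0398 by DESeq2 and 0.0104 without Sfpq replicate B. Over all alternatives the adjusted p ranged from 0.0104 to 0.739. It was also called, at an adjusted p of 0.0368, in the limma fit of gene totals, where this gene's level and log2 fold change are the same because it has no .primary row. Both antibodies were above input at 447 and 379, and IgG held 1478, 1537 and 739.

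NORAD, a mostly cytoplasmic RNA that binds Pumilio proteins, was higher in Sfpq. It had 70.0 and 75.1 RPM in Brg1, 869.5 and 902 in Sfpq, 344 and 277 in input and 252, 108 and 805 in IgG. Sfpq was 12.2-fold above Brg1 (log2 fold change -3.60, SE 0.14, adjusted p = 2.22e-10), and Brg1 was below input. OIP5-AS1 had 29.8 and 27.7 RPM in Brg1 and 122 and 112 in Sfpq (log2 fold change -2.0, SE 0.14, adjusted p = 8.73e-09). TUG1 had 80.9 and 80.4 RPM in Brg1 against 327 and 273 in Sfpq (log2 fold change -1.88, SE 0.15, adjusted p = 2.73e-08). The list of long nuclear RNAs, which also holds NORAD, has 10 genes with a row. Summed over the rows of each gene, 7 of the 10 (70%) were higher in Brg1, NEAT1 among them, and 3 (30%) in Sfpq. Over all gene totals, 37.6% were higher in Brg1 and 35.4% in Sfpq, so the Sfpq share was near that of all genes.

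**Figure D4:**
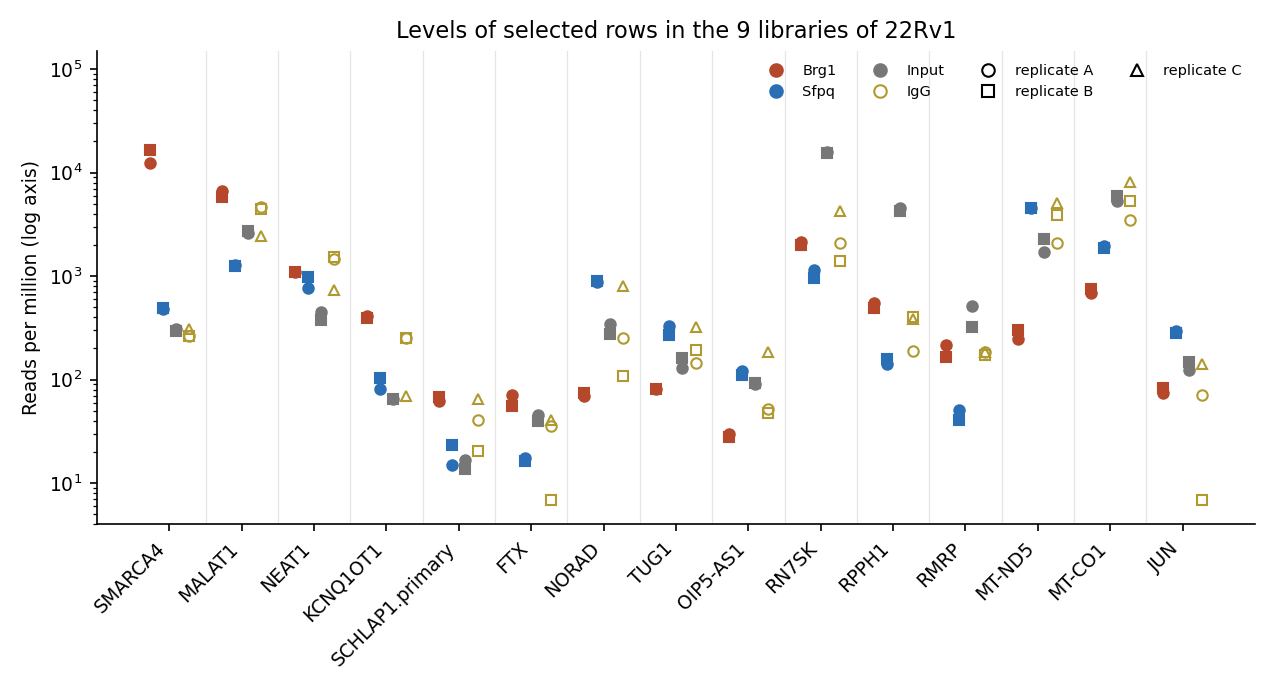
RPM on a log axis for 15 rows in the 9 libraries of 22Rv1, 1 marker per library, coloured by group and shaped by replicate. SMARCA4 reaches 12446 and 16356 RPM in Brg1 against at most 492 elsewhere, and MT-ND5 and NORAD lie lowest in Brg1.

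Long intergenic (LINC) and antisense RNAs have mostly .primary rows, of which 72.6% over all genes were higher in Brg1 and 7.94% in Sfpq. Of 163 .primary rows of LINC genes, 138 (84.7%) were higher in Brg1 and 9 (5.52%) in Sfpq (median 1.44 on the log2 scale). Summed over both kinds of row of 183 LINC genes, levels were 5018 and 4609 RPM in Brg1 and 2574 and 2863 in Sfpq. Input held 2506 and 2378 RPM and IgG 9474, 7770 and 5018, so IgG replicates A and B exceeded both Brg1 libraries. How much of the Brg1 level of LINC genes is background was not tested. Of 245 .primary rows of antisense genes, 186 (75.9%) were higher in Brg1 and 20 (8.16%) in Sfpq, near the shares over all .primary rows, with a median of 1.27. Without Sfpq replicate B the counts were 179 and 11. Of their plain rows, 10 of 42 (23.8%) for LINC genes and 20 of 77 (26.0%) for antisense genes were higher in Brg1. In Sfpq 14 (33.3%) and 31 (40.3%) were higher. Over all plain rows, 4.95% were higher in Brg1 and 70.7% in Sfpq. LINC00960.primary had 14.4 and 14.4 RPM in Brg1 and 0.700 and 2.31 in Sfpq (3.02). LINC01374.primary went the other way, with 26.2 and 20.7 in Brg1 and 211 and 226 in Sfpq (-3.21), but IgG held 655, 1004 and 1524 RPM. FGD5-AS1 had 4.54 and 8.73 RPM in Brg1 against 66.0 and 62.6 in Sfpq (-3.25). The libraries were stranded, but whether the counting used strand is not given in the sources used here, so antisense rows that overlap a gene are uncertain.

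Several host transcripts of microRNAs differed. MicroRNAs are short RNAs cut from hairpins in such hosts, and they recognise targets through the seed, bases 2 to 8. The mature sequences below lie within the RefSeq spans of hosts described here. For some hosts they are only part of those in the span, which number 12 for MIR17HG. Whether the RNA counted in a row holds the hairpin was not tested. Mature microRNAs were not measured in these libraries. Seeds are in capitals, 5′ to 3′, from RefSeq (GRCh38.p14), and miR-17 with miR-20a, the 2 miR-29s, the 2 let-7s and the 2 miR-181s share a seed within each pair.
hsa-miR-663a, chr20:26208243-26208264, minus strand: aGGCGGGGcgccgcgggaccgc
hsa-miR-17-5p, chr13:91350618-91350640, plus strand: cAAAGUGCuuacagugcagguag
hsa-miR-20a-5p, chr13:91351072-91351094, plus strand: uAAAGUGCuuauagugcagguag
hsa-miR-29b-3p, chr1:207802450-207802472, minus strand: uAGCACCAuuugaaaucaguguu
hsa-miR-29c-3p, chr1:207801865-207801886, minus strand: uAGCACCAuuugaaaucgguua
hsa-let-7a-5p, chr22:46112752-46112773, plus strand: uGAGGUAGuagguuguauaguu
hsa-let-7b-5p, chr22:46113691-46113712, plus strand: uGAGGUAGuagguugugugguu
hsa-miR-181a-5p, chr1:198859108-198859130, minus strand: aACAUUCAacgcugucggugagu
hsa-miR-181b-5p, chr1:198858925-198858947, minus strand: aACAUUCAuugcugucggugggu
hsa-miR-31-5p, chr9:21512158-21512178, minus strand: aGGCAAGAugcuggcauagcu
hsa-miR-155-5p, chr21:25573983-25574006, plus strand: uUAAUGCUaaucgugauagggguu

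MIR663AHG, host of the first of these, had 38.9 and 40.5 RPM in Brg1 and 0.840 and 1.5 in Sfpq, 34.0-fold higher in Brg1 (log2 fold change 4.62, SE 0.48, adjusted p = 4.81e-07). Sfpq held 6 and 11 reads, the inputs differed (12.9 and 2.56 RPM), and IgG held 77.5, 123 and 6.11. The separate MIR663A row had 27.2 and 25.9 RPM in Brg1 and 7.0 and 9.25 in Sfpq (1.66). Both rows were thus higher in Brg1, and in each IgG replicates A and B exceeded Brg1.

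MIR17HG, host of the cluster with miR-17 and miR-20a, had opposite rows in the less common order. Its plain row had 9.61 and 14.4 RPM in Brg1 and 2.24 and 5.03 in Sfpq (1.66). Its .primary row had 19.4 and 22.3 in Brg1 and 52.9 and 70.6 in Sfpq (-1.53). The summed level was higher in Sfpq (-0.97).

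MIR29B2CHG, host of the miR-29 pair, had 38.7 and 42.9 RPM in Brg1 and 14 and 18.5 in Sfpq (1.31). MIR31HG.primary had 104 and 83.2 RPM in Brg1 against 18.3 and 21.8 in Sfpq (2.19), with IgG between 32.6 and 148. MIR181A1HG.primary had 15.9 and 13.3 RPM in Brg1 against 1.54 and 1.63 in Sfpq (2.85). All 3 were higher in Brg1 with no overlap. So were MIR155HG.primary (11.1 and 7.69 against 2.66 and 3.13, 1.53) and MIRLET7BHG.primary, the let-7 host (204 and 189.8 against 90.1 and 133, 0.84). Over all 11685 .primary rows, 9188 had no overlap in this direction, 72.6% were higher in Brg1 and the median was 1.14. The 0.84 of MIRLET7BHG.primary was below that median. Over all plain rows, the kind of the MIR29B2CHG row, 4.95% were higher in Brg1. The hosts in this section were picked after their values were seen.

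Most small structured RNAs were higher in Brg1 than in Sfpq, while their summed level was below input in both. These RNAs, which fold into compact particles for splicing, RNA processing and protein export, have no .primary row. Of 21 rows, 18 (85.7%) were higher in Brg1 and 0 in Sfpq, beside 4.95% and 70.7% of all plain rows, with a median log2 fold change of 1.31. Their summed level was 6368 and 5491 RPM in Brg1 and 3159 and 2706 in Sfpq, against 67366 and 75394 in input and 8033, 5633 and 13211 in IgG. RMRP, the RNA of RNase MRP, had 215 and 164 RPM in Brg1, 50.6 and 41.1 in Sfpq and 514 and 324 in input (log2 fold change 2.03, SE 0.20, adjusted p = 2.34e-07). RPPH1, the RNA of RNase P, had 552 and 488 in Brg1, 141 and 159.5 in Sfpq and 4500.1 and 4235 in input (1.79). RN7SK, which holds the elongation factor P-TEFb inactive, had 2126 and 1978 in Brg1, 1157 and 967 in Sfpq and 15624 and 15418 in input (log2 fold change 0.95, SE 0.18, adjusted p = 0.000189). IgG stood at 2072, 1402 and 4274 RPM for RN7SK, around the Brg1 level. RN7SL1, the RNA of the signal recognition particle, showed a smaller difference, with 1259 and 1082 in Brg1 and 874 and 743 in Sfpq (0.53). Several rows of this group are near-identical copies (RN7SL1 and RN7SL2, the SNORD3 genes), between which reads may be divided.

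Transcripts of the mitochondrial genome were far lower in Brg1. They encode core subunits of the respiratory chain and the ribosomal RNAs of the organelle. All 14 rows were higher in Sfpq, with a median log2 fold change of -3.0. Summed, they made up 1952 and 2221 RPM in Brg1 and 16405 and 16344 in Sfpq, 7.85-fold higher in Sfpq. Input held 16052 and 19174 RPM and IgG 12045, 20925 and 28094, so Brg1 was the group that stood apart. MT-ND5, a complex I subunit, had 245 and 298 RPM in Brg1, 4529 and 4594 in Sfpq and 1710.3 and 2276 in input (-4.07). MT-ND4L had 24.9 and 28.6 in Brg1, 527 and 589 in Sfpq and 241 and 180.4 in input (log2 fold change -4.36, SE 0.16, adjusted p = 1.22e-10). MT-CO1, the catalytic subunit of cytochrome c oxidase, differed least, with 686 and 744 in Brg1, 1935 and 1865 in Sfpq and 5266 and 5993 in input (-1.41). Sfpq was above input for MT-ND5 and MT-ND4L and below it for MT-CO1. The tRNA row MT-TH, outside the list, had 2.88 and 2.94 RPM in Brg1 and 121 and 117 in Sfpq (log2 fold change -5.13, SE 0.18, adjusted p = 1.22e-10), with input between them at 12.2 and 13.9 and IgG at 73.2, 114 and 143. With IgG in the fit, 11 of the 14 rows were still higher in Sfpq.

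Messenger RNAs of immediate early genes, which signals switch on for a short time, were higher in Sfpq. All 15 plain rows of immediate early genes were higher in Sfpq, with a median log2 fold change of -1.48, beside 70.7% of all plain rows. JUN, a component of AP-1, had 75 and 83.0 RPM in Brg1, 296 and 281 in Sfpq and 125 and 147 in input (-1.86). FOSL2, another AP-1 subunit, had 0.799 and 1.39 in Brg1 and 21.1 and 20.9 in Sfpq (log2 fold change -3.78, SE 0.30, adjusted p = 3.23e-08). Of 276 plain rows of zinc finger ZNF genes, which encode mostly DNA-binding repressors, 243 (88.0%) were higher in Sfpq and 4 in Brg1 (median -1.61). Of their 260 .primary rows, 175 (67.3%, beside 72.6% of all .primary rows) were higher in Brg1 and 15 in Sfpq (median 0.88, beside 1.14), and without Sfpq replicate B 176 and 9. ZNF865 had 1.96 and 0.530 RPM in Brg1 and 28.0 and 31.4 in Sfpq (-4.25). ZNF664.primary had 132 and 126 in Brg1 and 8.96 and 16.3 in Sfpq (3.36), while the summed level of ZNF664 was higher in Sfpq (-0.91).

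Androgen-regulated genes of the prostate luminal cell were also divided by kind of row. None of their 17 plain rows was higher in Brg1 and 15 (88.2%, beside 70.7% overall) were higher in Sfpq (median -1.14). Of 13 .primary rows, 12 (92.3%, beside 72.6% overall) were higher in Brg1 and 0 in Sfpq (median 1.41). PMEPA1, a brake on TGF-beta signalling, had 1.01 and 1.08 RPM in Brg1, 30.8 and 28.0 in Sfpq and 24.8 and 27.9 in input on its plain row (log2 fold change -4.27, SE 0.22, adjusted p = 1.26e-09). PMEPA1.primary turned the order, with 188 and 205 in Brg1, 83.1 and 122 in Sfpq and 28.8 and 30.2 in input (0.96). ELL2, an elongation factor gene, did the same: its plain row had 3.41 and 2.67 in Brg1 and 23.0 and 20.7 in Sfpq (-2.66), and ELL2.primary 67.9 and 78.3 in Brg1 against 14.1 and 12.4 in Sfpq (2.42). The summed levels of PMEPA1 (0.59) and ELL2 (1.11) were higher in Brg1. HOXB13, a prostate lineage factor, had 5.51 and 11.8 RPM in Brg1 against 38.0 and 31.8 in Sfpq (-2.04).

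Genes of splicing regulators, which both process RNA and are themselves spliced, did not go beyond the shares over all rows. Of 41 plain rows, 27 (65.9%, beside 70.7% overall) were higher in Sfpq and 1 in Brg1 (median -0.63). Of 34 .primary rows, 19 (55.9%, beside 72.6% overall) were higher in Brg1 and 1 in Sfpq (median 0.50, beside 1.14 overall). SRSF4.primary had 326 and 299 RPM in Brg1, 77.2 and 82.7 in Sfpq and 172 and 159 in input (1.96). HNRNPD.primary had 201 and 181 in Brg1 and 37.3 and 40.8 in Sfpq (2.28). HNRNPU.primary was the row higher in Sfpq, with 3.49 and 1.61 RPM in Brg1 against 13.3 and 19.0 in Sfpq (-2.50). The summed levels of HNRNPD (0.15) and HNRNPU (-0.23) were not called.

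Most mRNAs of ribosomal proteins and oxidative phosphorylation were not called. Of 84 plain rows of ribosomal proteins, 20 (23.8%) were higher in Brg1, 5 (5.95%) in Sfpq and 59 were not called (median 0.27), beside 4.95% and 70.7% of all plain rows. That balance depended on single libraries: 58 were higher in Brg1 without Sfpq replicate A, 7 without Sfpq replicate B and 8 without Brg1 replicate B, while those higher in Sfpq numbered 3, 13 and 4, and 2 without Brg1 replicate A. Their summed level was 11247 and 12604 RPM in Brg1, 13163 and 9328 in Sfpq and 40191 and 39782 in input, so both antibodies were well under input. Nuclear genes of oxidative phosphorylation gave 12 and 12 of 80 plain rows. Those counts were 33 and 5 without Sfpq replicate A, 4 and 19 without Sfpq replicate B, 7 and 10 without Brg1 replicate B, and 11 and 5 without Brg1 replicate A. Their .primary rows gave 28 (60.9%, below the 72.6% of all .primary rows) and 2 of 46 (median 0.89). Of 24 plain rows of glycolytic and cytoskeletal genes, 13 (54.2%) were higher in Sfpq and 1, TMSB10, in Brg1. Without Brg1 replicate A 6 were higher in Sfpq, and without Sfpq replicate A 7. GAPDH had 416 and 511 RPM in Brg1 and 549 and 424 in Sfpq, overlapping levels with a log2 fold change of -0.07 (SE 0.16, adjusted p = 0.716), whose sign changes with the scaling. ACTB had 603 and 743 RPM in Brg1 against 959 and 858 in Sfpq (log2 fold change -0.44, SE 0.15, adjusted p = 0.0171). EEF2, a translation factor gene, had 871 and 1046 in Brg1 against 1886 and 1749 in Sfpq (-0.93). Histone genes, whose main mRNAs lack introns, gave 4 higher in Brg1 and 30 (50.8%) higher in Sfpq of 59 plain rows (median -0.37), but 11 higher in Sfpq without Brg1 replicate A and 16 without Sfpq replicate A.

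Among host RNAs of small nucleolar RNAs, 6 of 16 plain rows (37.5%) were higher in Brg1 and 2 (12.5%) in Sfpq, beside 4.95% and 70.7% of all plain rows. Of 9 .primary rows, 7 (77.8%) were higher in Brg1 and 2 (22.2%) in Sfpq, beside 72.6% and 7.94% of all .primary rows. SNHG16 had 42.0 and 54.4 RPM in Brg1 and 166 and 143 in Sfpq (-1.68), both below input at 228 and 267. ZFAS1.primary had 69.9 and 67.1 in Brg1 and 25.2 and 31.3 in Sfpq (1.27), with Brg1 level with input at 69.4 and 69.7.

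**Figure D5:**
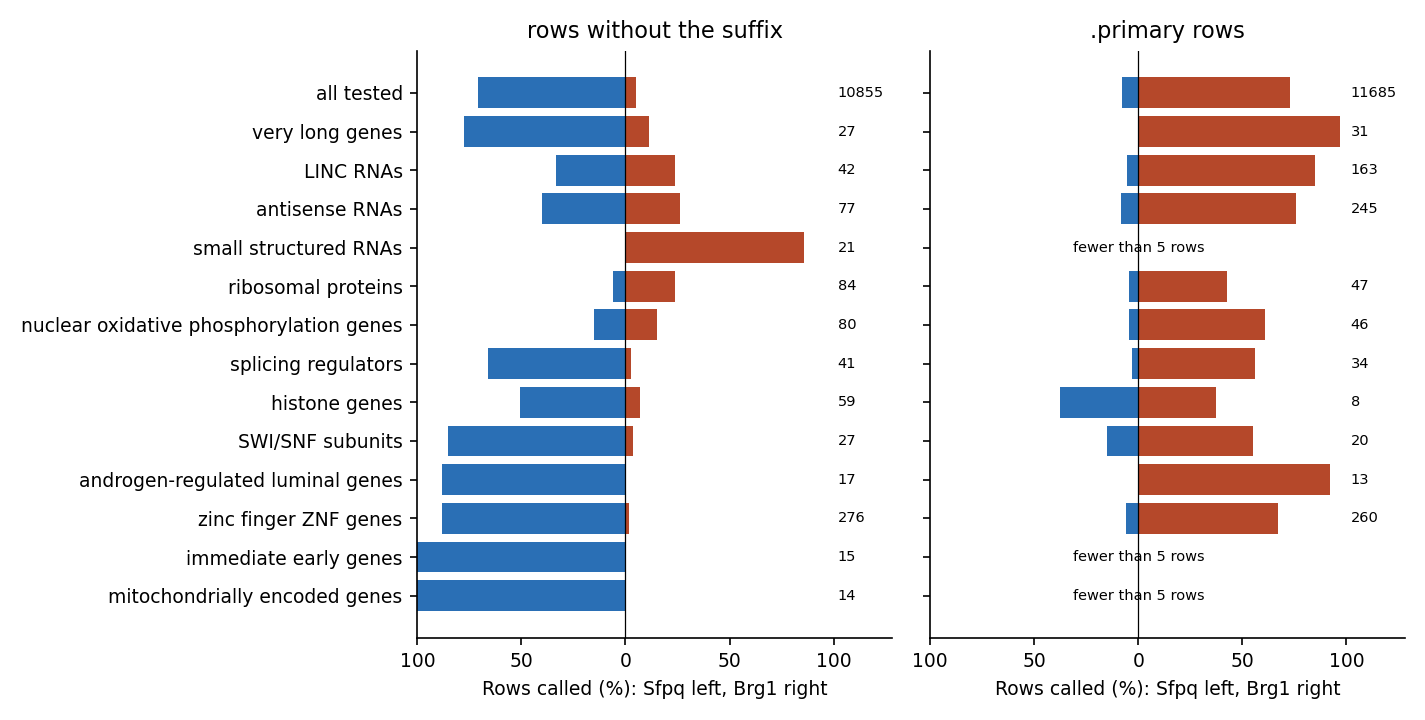
Percent of rows called higher in Brg1 (right of 0) and higher in Sfpq (left of 0) on the x axis for gene lists on the y axis, for rows without the suffix and .primary rows, with the number of rows at the right edge. All 14 mitochondrially encoded rows and all 15 plain rows of immediate early genes lie to the side of Sfpq, and 30 of 31 .primary rows of very long genes to the side of Brg1.

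The rows with the largest differences were often rows of 1 kind that were nearly empty with the other antibody. By size of the log2 fold change among rows with a mean of at least 5 RPM, the leading rows higher in Brg1 were HIST1H2BC, MED26.primary, CKLF.primary, AC009242.1.primary, SHB.primary, GABARAPL2.primary, SGSM3.primary, SPDYE2.primary, UCHL3.primary and TMEFF1.primary. MED26.primary, from a Mediator subunit gene, had 69.7 and 78.7 RPM in Brg1 and 0 reads in both Sfpq libraries, which makes it at least 179-fold higher in Brg1 against the 3-read floor per library. Both inputs were at 0 too, and IgG replicate B held 114 RPM. AC009242.1.primary had 38.6 and 37.4 RPM in Brg1 and 0 in both Sfpq libraries, at least 91.7-fold higher, with 7.08 and 9.66 in input. GABARAPL2.primary, from an autophagy gene, had 26.5 and 26.5 RPM in Brg1 and 0 in Sfpq, at least 63.9-fold. SHB.primary differed between the Sfpq replicates, with 0 and 143 reads, and CKLF.primary between the inputs (21 and 0.125 RPM). With Brg1 sequenced more deeply, a row near 0 in Sfpq was measured less finely than a row near 0 in Brg1.

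Towards Sfpq the leading rows were HIST1H2BC.primary, RPL13.primary, TSHZ3, ZC3H12C, MT-TH, PTGFRN.primary, ZIC5, HS3ST3B1, MGAT3 and BCL11B. TSHZ3, a transcription factor gene, had 0.757 and 1.81 RPM in Brg1, 68.6 and 62.0 in Sfpq and 17.0 and 17.3 in input (log2 fold change -5.27, SE 0.26, adjusted p = 1.01e-09). ZC3H12C, from a family of RNA-degrading zinc finger proteins, had 0.547 and 0.597 in Brg1, 37.4 and 37.1 in Sfpq and 9.07 and 9.79 in input (log2 fold change -5.14, SE 0.26, adjusted p = 1.14e-09). BCL11B, a transcription factor gene, had 0.0842 and 0.354 RPM in Brg1 against 19.5 and 17.3 in Sfpq (-4.74), with IgG replicates A and B at 47.9 and 46.8. RPL13.primary, with 22.4 and 22.7 RPM in Sfpq, was at 0 in both Brg1 libraries, at least 349-fold higher in Sfpq. Gene totals of these leading rows often ran otherwise. TSHZ3 (0.40) and ZC3H12C (0.65) had summed levels higher in Brg1, and those of HS3ST3B1 (-0.20) and RPL13 (0.22) were not called. The BCL11B total was also higher in Brg1, with 97.4 and 102 RPM against 64.3 and 80.7 in Sfpq (0.46).

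HIST1H2BC led both lists with opposite rows. Its plain row had 99.6 and 144 RPM in Brg1 and 2 and 0 reads in Sfpq. Its .primary row had 14 and 9 reads in Brg1 and 178 and 145 RPM in Sfpq. Summed, the gene had 99.9 and 144 RPM in Brg1 and 179 and 145 in Sfpq, a log2 fold change of -0.42. Because the counting may divide reads of 1 gene between its rows, both are reported as uncertain. Among plain rows, MRPS24, a mitochondrial ribosome gene (10.9 and 11.3 RPM in Brg1, 5 and 0 reads in Sfpq), and U2AF1, a splice site recognition factor (34.6 and 22.1 against 4.20 and 0.544 RPM, 3.67), followed HIST1H2BC, SMARCA4 and MIR663AHG. U2AF1 has a near-identical copy in the assembly and is uncertain as well.

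An independent measure came from LNCaP, where Brg1 was compared with input and no Sfpq library exists among those analysed here. Over all 22169 rows, 2870 (12.9%) were higher and 3092 (13.9%) were lower in LNCaP Brg1 than in input (limma, 4 libraries). Of 7752 rows that were higher in Brg1 than in Sfpq in 22Rv1 and present in LNCaP, 2131 (27.5%) were higher and 382 (4.93%) lower in LNCaP Brg1. Of 7475 rows higher in Sfpq in 22Rv1, 132 (1.77%) were higher and 1627 (21.8%) lower. Within .primary rows alone, 28.4% of those higher in Brg1 were higher and 4.23% lower in LNCaP Brg1, against 8.58% and 16.0% of those higher in Sfpq. Over all .primary rows present in both lines, 23.5% were higher and 8.08% lower. Of the 432 plain rows higher in Brg1, 49 (11.3%) were higher and 72 (16.7%) lower in LNCaP Brg1. More of them moved against the 22Rv1 direction than with it. Over all plain rows present in both lines, however, 1.83% were higher and 20.4% lower. Beside those shares, the 432 rows were more often higher and less often lower. Of the plain rows higher in Sfpq, 0.944% were higher and 22.5% lower. These LNCaP counts rest on few libraries: without input replicate B they were 288 higher and 281 lower, without input replicate A 979 and 531, and without Brg1 replicate B 1878 and 2228.

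Numbers in parentheses after LNCaP levels are log2 fold changes, Brg1 minus input. Of 29 .primary rows of very long genes, 24 were higher and 0 lower in Brg1 than in input. Of LINC .primary rows 77 of 188 were higher and 11 lower, and of antisense .primary rows 77 of 235 were higher and 12 lower, beside 23.5% higher and 8.08% lower over the 10022 .primary rows present in both lines. Over the 9377 plain rows present in both lines, 1.83% were higher and 20.4% lower, so few plain rows of any kind were higher. All 15 mitochondrially encoded rows were lower (median -2.39 on the log2 scale), and 60 of 83 plain ribosomal protein rows were lower and 0 higher. Of 25 small structured RNA rows, 11 were lower, 0 higher and the rest not called. In 22Rv1 the summed level of this group also lay below input, but its rows were not tested against input. NORAD had 97.0 and 67.7 RPM in LNCaP Brg1 and 213 and 257 in input (-1.53). KCNQ1OT1 had 292 and 296 in Brg1 and 72.6 and 66.6 in input (2.07). SCHLAP1.primary had 3917 and 4375 in Brg1 and 1736 and 1443 in input (1.39). MALAT1, higher in Brg1 than in Sfpq in 22Rv1, was not called in LNCaP, at 15956 and 19624 in Brg1 and 16406 and 13137 in input (0.27). NEAT1 was higher in LNCaP Brg1, at 3329 and 3565 against 1628 and 1378 (1.20). The share of reads on .primary rows was 50.8% and 60.5% in LNCaP Brg1 and 42.3% and 35.2% in input. LNCaP IgG replicates A and B were above both Brg1 libraries, at 66.9% and 66.8%, though with only 22184 and 46297 reads. How much of the LNCaP Brg1 share is background was not tested.

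All 3 IgG libraries were above all 4 antibody libraries in 509 of 22540 rows (2.26%). The share was 191 of 8488 (2.25%) among .primary rows higher in Brg1 and 19 of 928 (2.05%) among those higher in Sfpq, both near that overall share. It was 29 of 537 (5.40%) among plain rows higher in Brg1 and 89 of 7670 (1.16%) among those higher in Sfpq. The median IgG library was above all 4 in 17.03% of all rows, and in 17.6%, 10.7%, 26.3% and 11.4% of these classes in the same order. IgG libraries are shallow, and their Spearman correlation with each other (0.462 to 0.505) was below that between any antibody library and its replicate.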

How the data were processed

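RNA immunoprecipitates of 22Rv1 and LNCaP were sequenced as stranded, ribosomal RNA-depleted libraries with ERCC spike-ins, per the labels' protocols. The authors deposited 1 table per line with normalized counts (a signal per row and library). The submitters' processing notes name hg38, STAR 2.6, Salmon 0.8.2, deepTools 2.5.2 and DESeq2 without roles. The annotation, the counting rule and the meaning of .primary are not given in the sources used here. Dividing each column by its smallest positive value gave whole reads for 100% of values in all 15 libraries (tolerance 0.001 read), which removes the deposited scaling. Totals ranged from 490879 to 47871438 reads in 22Rv1 and from 22184 to 7506724 in LNCaP, and floors cover counting error only.

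RPM values of rows with a mean of at least 1 RPM over the Brg1, Sfpq and input libraries were tested as log2(RPM + 0.5) with limma 3.58.1 (R 4.3.3, empirical Bayes with a trend, Benjamini-Hochberg adjusted p under 0.05, no block). IgG stayed outside this fit because of its low depth. LNCaP Brg1 and input were fitted alone, and the levels of the 2 lines were not compared by a test. Count tests on the recovered reads, edgeR 4.0.16 and DESeq2 1.42.0, served as alternatives: edgeR called 9291 rows higher in Brg1 and 8042 in Sfpq, DESeq2 8694 and 8629. The procedure was also run on simulated data, in which far fewer rows changed than were called here and the spread between replicates was fixed. That run does not show how the procedure performs on data like these. Libraries differed beyond sampling noise, so none was merged. Replicate letters showed no sign of pairing: deviations of same-lettered libraries correlated at -0.045 between Brg1 and Sfpq, at 0.005 between Brg1 and input and at -0.13 between Sfpq and input. With so few libraries, these values cannot tell whether a letter marks a shared culture.

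Named rows were the 10 with the largest change in each direction among called rows without overlap and with a mean of at least 5 RPM over the 4 libraries. To these came the 5 largest each way among plain-symbol rows, a short list carried over from earlier work on these data, and up to 2 rows per list and direction. Other rows were named after their values were seen. The rows and lists were chosen with earlier results of these data known. Spans and sequences are from RefSeq (GRCh38.p14).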

Additional observations from a re-analysis of the deposited data

How the results depend on the processing

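Over all rows, 9025 were higher in Brg1 and 8598 in Sfpq. At the deposited scaling the counts were 6725 and 4988, with the IgG libraries in the fit 208 and 217 (2094 and 1677 at unadjusted p under 0.05), and with the rows of a gene summed, a setting chosen after seeing the data, 5380 and 5060. Under the other settings, each changed alone (pseudocounts of 0.1 and 2, a mean of at least 5 RPM, no filter, TMM, median-of-ratios, only the 4 antibody libraries, no trend, edgeR and DESeq2), they ranged from 8480 to 9416 and from 8042 to 8756. Leaving out 1 library gave 8328 to 9006 and 7806 to 8402. With the replicate block the counts were 8979 and 8521, although what a letter shares is not known. TMM moved the median row by 0.13 and the deposited scaling by 0.15 on the log2 scale. Requiring 2-fold between the nearest libraries left 5586 and 4612 rows without overlap. The difference in the share of reads on .primary rows, 33.8 points, was 36.0 without the top 10 rows, 35.6 over genes with both rows and 30.8 to 36.7 without 1 library. Within genes the difference was 33.0 to 38.2 without 1 library. In LNCaP the replicate block gave 754 higher and 639 lower rows against 2870 and 3092, TMM 3633 and 2590, edgeR 3672 and 2447, and leaving out 1 library 288 to 3555 and 281 to 3741. GAPDH, not called, was at 0.017 by TMM, 0.030 at the deposited scaling, 0.0075 by edgeR and from -0.25 to 0.12 without 1 library (above 0 without Brg1 replicate A or Sfpq replicate A), against -0.07. Of 97 named rows 91 were called, and 15 of them lost the call in 1 or more of the 18 settings without IgG. With IgG, 72 lost it. The cause of these changes was not tested. Sfpq depth limits rows that are low in Sfpq.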

Other observations

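Some .primary rows were high in IgG and intermediate in Sfpq. In 19 of the 928 .primary rows higher in Sfpq (2.05%), every IgG library exceeded all 4 antibody libraries, a share no larger than the 2.26% over all rows. Their summed level was 763 and 758 RPM in Brg1, 3873 and 3997 in Sfpq, 866 and 868 in input, and 8803, 16623 and 30305 in IgG, so that Sfpq lay between Brg1 or input and IgG. They include TGFA.primary, from a growth factor gene, with 39.6 and 35.5 RPM in Brg1, 356 and 322 in Sfpq, 46.2 and 54.4 in input and 737, 1064 and 2958 in IgG. CDK15.primary, from a kinase gene, had 16.3 and 22.8 in Brg1, 185 and 183 in Sfpq, 24.1 and 29.6 in input and 429.7, 983 and 1801 in IgG. The 19 rows were picked by these values after they were seen.

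A few rows held many reads in 1 replicate and almost none in the other. HOXA-AS3.primary had 214 and 0.420 RPM in the Brg1 libraries, 0.560 and 0.272 in Sfpq and 0.188 and 148 in input. MDC1-AS1.primary had 0.126 and 96.8 RPM in Brg1, 0 and 0.136 in Sfpq and 62.5 and 0.249 in input. Neither row was called.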
